A study of Mus musculus with 12 samples.

Results

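The genes described here carry glucose from the blood into the citric acid cycle of the heart: glucose transporters, the enzymes of glycolysis, the enzymes that make and break glycogen, lactate dehydrogenase and a lactate carrier, the mitochondrial pyruvate carrier, and the pyruvate dehydrogenase (PDH) complex with its kinases and a phosphatase. They were chosen as 40 gene symbols, and 41 of the 25171 rows of the gene count table carried one of them. Aldoa had 2 rows, of which ENSMUSG00000114515 held so few reads that it was not tested, so 40 rows were tested in every comparison.

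Glucose crosses the plasma membrane of a cardiomyocyte mainly through GLUT4, which insulin and contraction bring to the surface, and through GLUT1, which is always there and is prominent in the fetal heart. Hexokinase traps the sugar as glucose 6-phosphate, which is either stored as glycogen or split by glycolysis into pyruvate. Pyruvate leaves as lactate or enters the mitochondrion, where the PDH complex turns it into acetyl-CoA, and PDH kinases switch that complex off when the heart burns fatty acids. Most of these steps have several isoforms, of which 1 is typical of adult striated muscle.

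RNA-seq was performed on hearts of 12 mice in 4 groups of 3, to ask how a NOTCH2NLC transgene with 98 GGC repeats alters the heart. In every group the transgene lay at Rosa26 behind a loxP-flanked stop cassette. EIIa-tg mice also carried EIIa-Cre, which acts in all tissues, while EIIa-ctl mice lacked that Cre, and both were taken at postnatal day 30. Myh6-tg mice carried the cardiomyocyte-specific, tamoxifen-inducible Myh6-creERT2 and received 3 injections of tamoxifen at 75 mg/kg from day 60, whereas Myh6-ctl mice of the same genotype label received corn oil, and both were taken at day 90. Tamoxifen and active Cre therefore cannot be told apart from the transgene in the Myh6 model, and transgene expression itself was not analysed here. Nor can a difference in Esr1 reads between the Myh6 groups, given below, be told apart from it. The labels call the samples biological replicates.

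Each heart gave 38343106 to 50969834 counts, of which the 41 rows took 1.10 to 1.74%. Genes of the mitochondrial genome took 28.5 to 38.3% of counts in the other 3 groups and 15.5 to 18.6% in Myh6-tg. The defining markers of cardiomyocytes were abundant, and the 6 brain markers summed to no more than 49.1 normalized CPM, which are counts scaled to the size of the library, although the extraction text of the labels speaks of brain. Summed over 10 markers, cardiomyocyte genes lay at 45045 to 54590 normalized CPM in EIIa-ctl and 23275 to 39553 in EIIa-tg, and at 35278 to 47132 in the Myh6-ctl hearts and 10886 to 34897 in Myh6-tg, with no marker at 0. Fibroblast markers, 8 in all, summed to 1494 to 2181, 2741 to 3960, 2011 to 2607 and 2601 to 6231 in the same order, and 7 leukocyte markers to 416 to 651, 905 to 1180, 787 to 1339 and 884 to 2005. In bulk tissue, fewer cells of a type and less RNA per cell cannot be told apart, and the part of these shifts in the results below was not tested. Myh6-tg replicate 1 stood apart: its mean distance to the other hearts of its group was 86.0, against 62.4 and 63.0 for the others. This heart held the highest cardiomyocyte sum of that group and its lowest fibroblast sum, 2601 against 5810 and 6231. Its leukocyte sum of 2005 was the highest of any heart. Markers of skeletal muscle, 2 of 9 at 0, summed to 50.6 normalized CPM in that heart and to at most 8.70 in every other. EIIa-tg replicate 2 held the highest cardiomyocyte sum of its own group. The estrogen receptor gene Esr1, part of which is built into creERT2, was at 1031 to 2329 normalized CPM in Myh6-ctl and at 1.00 to 2.52 in Myh6-tg, although the labels give both groups the same Cre. This difference runs with the transgene in every contrast of the Myh6 groups, and its cause was not tested. The groups are used as labelled.

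Of the 40 genes 0 rose and 13 fell in the EIIa model, among them the insulin-responsive transporter Slc2a4, the muscle hexokinase Hk2, both subunits of the pyruvate carrier and 4 subunits of the PDH complex. A gene was called at an adjusted p under 0.05 over all genes tested, from edgeR's quasi-likelihood test. Over all genes, 8.65% rose and 8.30% fell under the same rule. The median log2 fold change was -0.40 over the 40 genes and 0.02 over all genes. Values of the 3 EIIa-tg hearts lay wholly below those of the 3 EIIa-ctl hearts for 18 of the 40 and wholly above them for 3, where 20.7% and 20.3% of all genes did. These calls rested on the full set of hearts. With replicate 1 or 3 of EIIa-ctl, or replicate 1 or 3 of EIIa-tg, left out, 0 remained. The calls over all genes then fell to between 0 and 0.877%. In those fits 17 or 18 of the 40 had an unadjusted p under 0.05, but the share of all genes under that limit was not taken. Without EIIa-ctl replicate 2 there were 7 calls, 1 of them higher, where 11.7% of all genes were called. Without EIIa-tg replicate 2 there were 20, of which 2 were higher, where 12.9% of all genes rose and 13.8% fell.

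Of the 40 genes 3 rose in the Myh6 model, namely the GLUT1 gene Slc2a1, the general enolase Eno1 and the glycogen branching enzyme Gbe1, and 13 fell. Over all genes 8.96% rose and 9.38% fell. The median log2 fold change was -0.50 over the 40 genes and 0.03 over all genes. Groups did not overlap for 18 genes that were lower in Myh6-tg and 10 that were higher, where 19.7% and 20.6% of all genes did so. Leaving out Myh6-tg replicate 1 gave 26 calls, 6 higher and 20 lower, where 12.8% of all genes rose and 13.9% fell. There were 3 calls without Myh6-ctl replicate 1 and 3 without Myh6-tg replicate 3, 4 without Myh6-tg replicate 2, 7 without Myh6-ctl replicate 2 and 12 without Myh6-ctl replicate 3, fits in which 798 to 1755 of all genes were called, against 2805 with every heart. Slc2a1 and Hk2 were called in all 6 of these fits. By edgeR's test they were also the 2 genes that passed stricter limits, 0.01 for the adjusted p and 1 for the absolute log2 change, which 1.92% of all genes passed upward and 2.05% downward. How many passed them depended on the fit, with 10 of the 40 once the replicate number was a block (6.33% of all genes) and 15 by DESeq2 (10.7%). On the authors' FPKM values, which are not scaled to a common median, the median of all genes was 0.34 and the calls among the 39 genes kept split into 10 higher and 13 lower, where 25.7% of all genes were higher and 6.95% lower, so the higher calls stood at the background. The same change of scale in the EIIa model set that median at 0.16, with 2 higher and 8 lower, where 18.6% and 5.26% of all genes were.

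**Figure D1:**
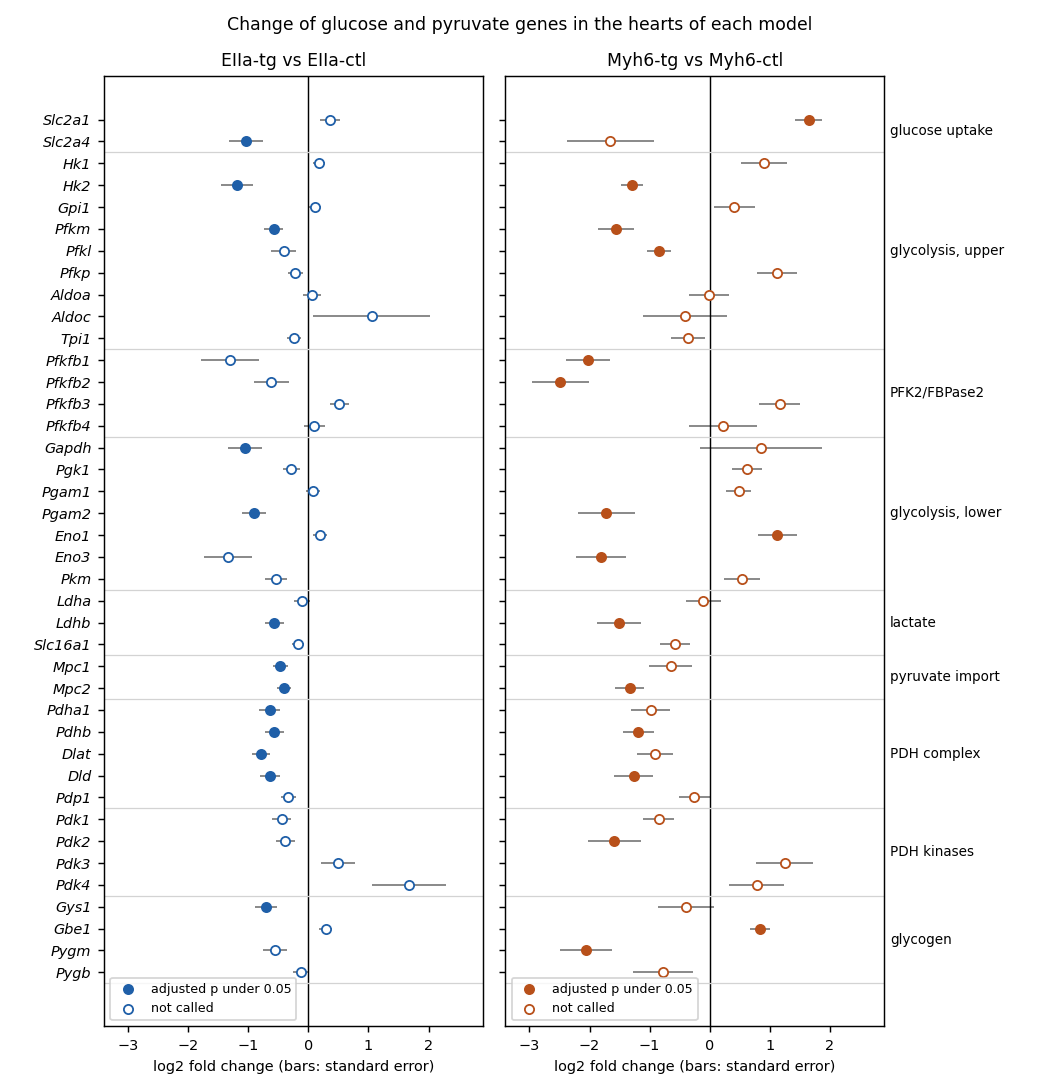
Log2 fold change of each of the 40 tested genes (horizontal axis; bars are standard errors) in EIIa-tg against EIIa-ctl hearts (left) and Myh6-tg against Myh6-ctl hearts (right), grouped by step, with filled points at an adjusted p under 0.05. The filled points lie left of 0 in the EIIa model, and in the Myh6 model only Slc2a1, Eno1 and Gbe1 are filled on the right.

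7 genes fell in both models, Hk2, Pfkm, Pgam2, Ldhb, Mpc2, Pdhb and Dld, where 3.54% of the 14649 genes tested in both did so. None of the 40 rose in both, where 2.70% of those genes did, and none was called in opposite directions. The other 6 of the EIIa calls, Slc2a4, Gapdh, Mpc1, Pdha1, Dlat and Gys1, were not called in the Myh6 model, and 9 genes were called in the Myh6 model alone, a contrast that does not show a difference between the models unless it was itself tested, as below.

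The glucose transporters were called in different models, Slc2a4 as lower in the EIIa model and Slc2a1 as higher in the Myh6 model. Slc2a4, which encodes GLUT4 (GRCm38 chr11:69942539-69948188, minus strand), was at 377, 273 and 421 normalized CPM in EIIa-ctl and at 141, 254 and 127 in EIIa-tg. The EIIa-tg hearts all lay below their controls, EIIa-tg replicate 2 by the smallest margin, and the gene fell by 1.04 on the log2 scale (SE 0.28, adjusted p = 0.0392). It was at 295, 254 and 208 in Myh6-ctl and at 185, 30.9 and 24.6 in Myh6-tg. All 3 Myh6-tg hearts were below the controls, but replicate 1 stayed close to them, and the log2 difference of -1.66 (SE 0.72, adjusted p = 0.150) was not called. Blocking on the replicate number, a pairing taken from these same data, gave -2.30 (SE 0.52, adjusted p = 0.0256). Without Myh6-tg replicate 1, a heart picked out from these same data, the log2 difference was -3.19 (SE 0.23, adjusted p = 0.000538), where 26.7% of all genes were called.

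Slc2a1, which encodes GLUT1 (GRCm38 chr4:119108711-119137983, plus strand), was at 13.2, 10.4 and 15.2 normalized CPM in EIIa-ctl and at 14.6, 16.3 and 19.0 in EIIa-tg. It was at 14.4, 23.9 and 16.2 in Myh6-ctl hearts and at 53.1, 64.4 and 53.1 in those of Myh6-tg. The 3 Myh6-tg hearts were close to each other and far above the 9 others. The gene rose by 1.64 on the log2 scale in the Myh6 model (SE 0.23, adjusted p = 0.00561), and the adjusted p stayed at or under 0.0311 with any 1 heart left out. The EIIa groups overlapped, and the difference was 0.36 (SE 0.17, adjusted p = 0.161).

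Slc2a1 rose in the Myh6 model and Hk2 fell in both, and sequence at the start of each is shown since both hold ACGTG, the core letters of the site bound by hypoxia-inducible factors. The sequences are RefSeq's for GRCm38.p6, read 5′ to 3′ along the gene, with ACGTG or its reverse complement in capitals: chr4:119108495-119108713 on the plus strand for Slc2a1 and chr6:82774455-82774704 on the minus strand for Hk2. The window of Slc2a1 is shown as far as its ACGTG, at 119108709 to 119108713, with its last 31 bases left out: that site lies before RefSeq's start (119108745) and spans the start of the gene in GENCODE (119108711).
Slc2a1: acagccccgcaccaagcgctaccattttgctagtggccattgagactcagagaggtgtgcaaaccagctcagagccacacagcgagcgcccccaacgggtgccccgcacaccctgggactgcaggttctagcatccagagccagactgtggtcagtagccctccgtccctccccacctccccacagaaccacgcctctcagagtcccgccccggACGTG
Hk2: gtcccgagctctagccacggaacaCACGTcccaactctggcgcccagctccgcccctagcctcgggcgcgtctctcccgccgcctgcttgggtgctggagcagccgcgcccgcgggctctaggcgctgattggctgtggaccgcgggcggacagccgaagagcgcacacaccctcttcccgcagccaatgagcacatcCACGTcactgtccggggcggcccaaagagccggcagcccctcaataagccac

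ACGTG, searched on both strands in the 250 bases before each start, was present in 16 of the 38 genes with a window in RefSeq's table, or 20 of their 58 windows (34.5%), against 16.6% of all 32851 windows. Windows of the same gene can overlap, as for Aldoa, and were each counted, so they are not independent. The share of all genes with ACGTG was not taken. It stood before genes of either direction: before 1 of the 3 genes that rose in the Myh6 model (Slc2a1), 6 of the 13 that fell and 9 of the 22 not called, and before 3 of the 12 that fell in the EIIa model and 13 of the 26 not called, counting genes with a window. CACGTG, which contains ACGTG, was in 10.3% of these windows and 6.02% of all. AGGTCA, bound by several nuclear receptors, was in 15.5% and 14.0%, and GTAAACA, bound by FoxO factors, in 1.72% and 3.17%. A loose form of the MEF2 site, with its outer letters fixed and any base allowed between them, was in 3.45% and 3.20%. Matches to this loose form need not be MEF2 sites. TNAAGGTCA, the site of estrogen-related receptors, was in 0 of the 58 windows and 1.14% of all.

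In the upper part of glycolysis Hk2 and Pfkm, the enzymes typical of muscle, fell in both models. Hk2 (GRCm38 chr6:82725025-82774454, minus strand), the insulin-regulated hexokinase of muscle, was at 219, 144 and 220.3 normalized CPM in EIIa-ctl and at 67.0, 122 and 67.8 in EIIa-tg. It was at 168, 149.5 and 151 in Myh6-ctl and at 73.0, 64.1 and 53.5 in Myh6-tg. Neither pair of groups overlapped, and Hk2 fell by 1.18 (SE 0.26, adjusted p = 0.0264) and by 1.30 (SE 0.18, adjusted p = 0.00563) on the log2 scale. Hk1, the general hexokinase, was at 144 to 176 in EIIa-ctl, 177 to 183 in EIIa-tg and 151 to 179 in Myh6-ctl. In Myh6-tg it was at 534 in replicate 1 and 208 in both others, above every control heart, with a log2 difference of 0.90 (SE 0.38, adjusted p = 0.138) that was not called.

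Pfkm, the muscle phosphofructokinase that commits sugar to glycolysis, was at 843, 681 and 826 normalized CPM in EIIa-ctl and 505, 628 and 445 in EIIa-tg, and at 672, 619.7 and 516 in the Myh6-ctl hearts and 294, 170.4 and 150.1 in Myh6-tg. Both transgenic groups lay below their controls, and it fell by 0.58 (SE 0.16, adjusted p = 0.0438) and by 1.56 (SE 0.30, adjusted p = 0.0138). Pfkl, the liver-type form, fell by 0.84 in the Myh6 model (SE 0.20, adjusted p = 0.0272), from 88.6 to 116 in controls to 47.1 to 68.3. On the FPKM scale that change of Pfkl was -0.43 with an adjusted p of 0.0855. Pfkp, the platelet form, was at 54.3, 43.5 and 40.2 in Myh6-ctl and at 158, 74.3 and 68.2 in Myh6-tg, all 3 above the controls. Its log2 difference of 1.12 (SE 0.33, adjusted p = 0.0541) became a call with the replicate block, at 1.02 (SE 0.21, adjusted p = 0.0196), and was 0.63 (SE 0.18, adjusted p = 0.0395) without Myh6-tg replicate 1. Gpi1, Aldoa and Tpi1, which carry out the steps around it, were not called in any comparison by edgeR's test, with log2 differences of 0.11, 0.06 and -0.23 in the EIIa model and 0.41, -0.01 and -0.36 in the Myh6 model. Aldoc, the brain aldolase, did not exceed 0.619 normalized CPM in any heart.

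The bifunctional PFK2/FBPase2 enzymes set the level of fructose 2,6-bisphosphate, the strongest activator of phosphofructokinase. Pfkfb2, the heart isoform, which insulin and adrenaline activate, was at 38.7, 28.5 and 43.2 normalized CPM in Myh6-ctl and at 12.02, 4.49 and 3.26 in Myh6-tg, below every control. It fell by 2.48 on the log2 scale (SE 0.48, adjusted p = 0.0144), the largest change of the 40 genes in that model. Pfkfb1, the liver and muscle isoform, was at 2.89, 3.93 and 2.96 and then at 0.747, 0.889 and 0.757, and fell by 2.03 (SE 0.36, adjusted p = 0.0117). Pfkfb3, the inducible isoform with the highest kinase activity, was at 8.18, 9.50 and 19.9 in Myh6-ctl and at 33.5, 24.9 and 26.1 in Myh6-tg. The groups did not overlap, with a log2 difference of 1.17 (SE 0.35, adjusted p = 0.0527) that became a call with the replicate block, at 1.27 (SE 0.33, adjusted p = 0.0387). None of the 4 isoforms was called in the EIIa model: Pfkfb1 differed by -1.30 (SE 0.49, adjusted p = 0.0964), Pfkfb2 by -0.61 (SE 0.29, adjusted p = 0.168) and Pfkfb3, higher in all 3 EIIa-tg hearts, by 0.51 (SE 0.16, adjusted p = 0.0609).

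In the lower part of glycolysis Pgam2 fell in both models and Eno3 in the Myh6 model, while Eno1 rose there. Pgam2, the muscle phosphoglycerate mutase, was at 387, 363 and 395 normalized CPM in EIIa-ctl and 183, 272 and 156 in EIIa-tg, and at 362, 419 and 240.3 in the Myh6-ctl hearts and 184, 76.2 and 49.7 in Myh6-tg. It fell by 0.91 (SE 0.20, adjusted p = 0.0248) and by 1.72 (SE 0.48, adjusted p = 0.0434). Pgam1, the general form, was at 54.5 to 70.4 in the EIIa groups, 78.4 to 84.998 in Myh6-ctl and at 85.2, 136 and 121 in Myh6-tg, and was called in neither model (log2 differences 0.08 and 0.48).

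Eno3, the muscle enolase, was at 1297, 1061 and 1409.9 normalized CPM in EIIa-ctl and at 274, 877 and 340.5 in EIIa-tg. All 3 transgenic hearts were lower, replicate 2 much less so than the others. The log2 difference of -1.34 (SE 0.40, adjusted p = 0.0537) was just short of a call. Without EIIa-tg replicate 2, a heart picked out from these same data, it was -2.04 (SE 0.17, adjusted p = 0.000502), where 26.6% of all genes were called. Eno3 was at 1101, 986 and 680.4 in Myh6-ctl and at 435, 201 and 158 in Myh6-tg, and fell by 1.80 (SE 0.41, adjusted p = 0.0233). Eno1, the general enolase, was at 173, 239 and 161 in Myh6-ctl and at 614, 339 and 299 in Myh6-tg, and rose by 1.13 (SE 0.32, adjusted p = 0.0455). With any 1 heart other than Myh6-tg replicate 1 left out, Eno1 was not called, with an adjusted p of up to 0.149.

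Gapdh, a glycolytic enzyme often taken as a reference gene, was uneven within groups. It was at 247, 144 and 100.03 normalized CPM in EIIa-ctl and at 77.2, 74.6 and 85.1 in EIIa-tg, and fell by 1.06 (SE 0.28, adjusted p = 0.0389). In Myh6-ctl it was at 163, 274 and 65.2 and in Myh6-tg at 789, 64.7 and 55.3, so that replicate 1 alone set the group's mean. The log2 difference was 0.85 with all hearts (SE 1.01, adjusted p = 0.598) and -1.49 without Myh6-tg replicate 1 (SE 0.53, adjusted p = 0.0802). Pgk1 and Pkm, which make ATP in this part of the path, were at 359, 414 and 284 and at 839.6, 783 and 653 in Myh6-ctl and at 685, 487 and 451 and at 1568, 888 and 857 in Myh6-tg. Every Myh6-tg heart exceeded every control, with uncalled differences of 0.62 (SE 0.25, adjusted p = 0.125) and 0.54 (SE 0.29, adjusted p = 0.239). Both had lower means in EIIa-tg, at -0.29 (SE 0.14, adjusted p = 0.195) and -0.54 (SE 0.18, adjusted p = 0.0678). Gapdh, Aldoa, Pgam1, Eno1, Pgk1, Pkm and Ldha have near-identical copies elsewhere in the genome, and how reads shared with them were counted is not given in the sources used here, so their values are uncertain.

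**Figure D2:**
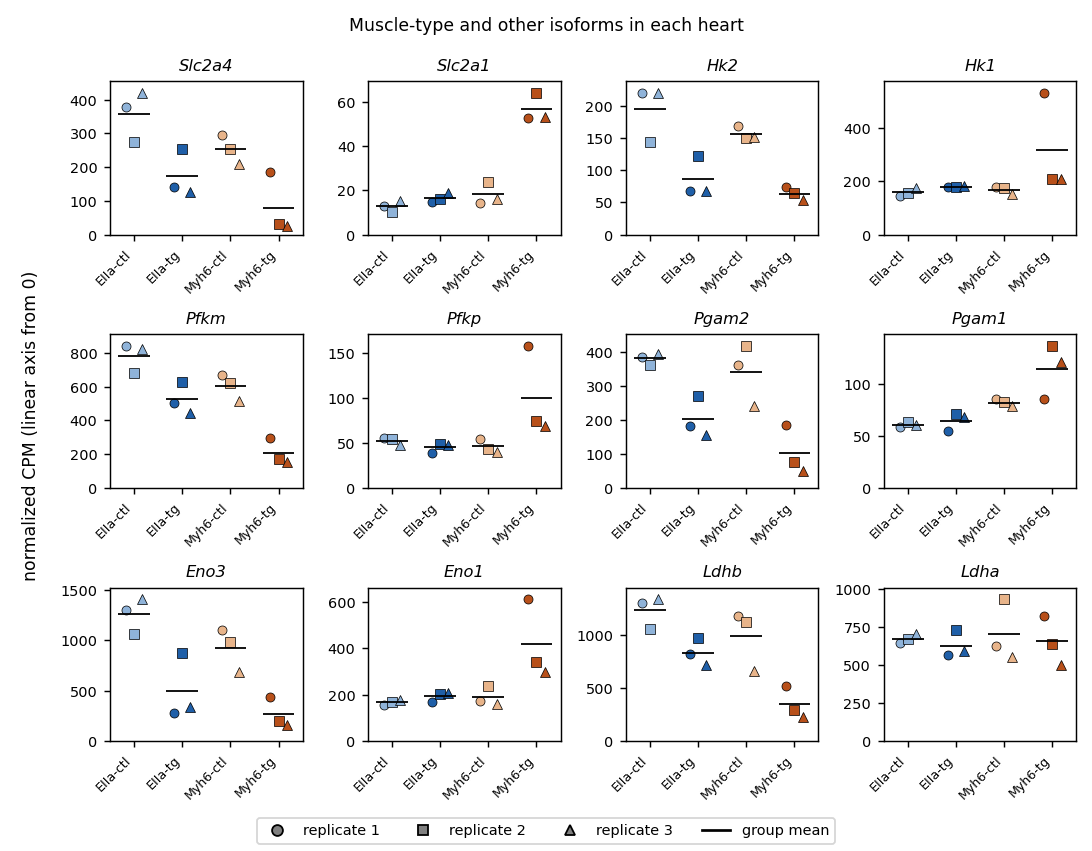
Normalized CPM in each heart (vertical axes, linear and starting at 0; 1 point per heart, shape for the replicate number, line for the group mean) for Slc2a4, Hk2, Pfkm, Pgam2, Eno3 and Ldhb. Each is followed by another isoform of the same step, and of the last pair Ldhb is the heart form and Ldha the muscle form. Slc2a1 stands at 53.1 to 64.4 in Myh6-tg and at 10.4 to 23.9 in all other hearts, and Myh6-tg replicate 1 stands apart for Slc2a4 and Hk1.

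Lactate dehydrogenase has a heart subunit, encoded by Ldhb, and a muscle subunit, encoded by Ldha. Ldhb was at 1299, 1049 and 1336 normalized CPM in EIIa-ctl and 818, 964 and 709.9 in EIIa-tg, and at 1172, 1117 and 661 in the Myh6-ctl hearts and 515, 295 and 227 in Myh6-tg. The transgenic groups lay below their controls, and it fell by 0.57 (SE 0.16, adjusted p = 0.0460) and by 1.51 (SE 0.37, adjusted p = 0.0296). Ldha overlapped between groups in both models, with log2 differences of -0.11 each (SE 0.13 and 0.29). Slc16a1, the lactate carrier MCT1, lay below the controls in all 3 hearts of each transgenic group, at 216 to 256 against 258 to 283 in the EIIa model and 129.99 to 206 against 228 to 321 in the Myh6 model. Its differences of -0.17 (SE 0.11, adjusted p = 0.285) and -0.58 (SE 0.25, adjusted p = 0.142) were not called.

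Levels of different genes can be compared only per length, so the balance between isoforms was taken from FPKM, as the share of 1 form in the summed FPKM of its family within each heart, which no scaling between hearts affects. The balance was tested as the log2 ratio of that form to the others with a two-sided exact permutation test, for which 0.1 is the smallest p that 3 against 3 hearts allow, so no share could be called. In EIIa-ctl, FPKM was highest for Aldoa (1387 ± 74.1, SD, n = 3), Ldhb (839 ± 80.1) and Eno3 (750 ± 85.8), and Slc2a4 (125 ± 23.3) was far above Slc2a1 (3.49 ± 0.566).

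GLUT4 made up 97.4, 97.1 and 97.3% of the FPKM of both transporters in EIIa-ctl and 92.6, 95.3 and 89.7% in EIIa-tg. Its share was 96.4, 93.2 and 94.4% in Myh6-ctl and 81.9, 35.4 and 35.3% in Myh6-tg. Groups did not overlap in either model (exact permutation p = 0.1 each), and in 2 of the 3 Myh6-tg hearts the GLUT1 transcript was the more abundant per length. Eno3 made up 89.1 to 91.2% of enolase FPKM in EIIa-ctl and 68.0, 84.4 and 68.3% in EIIa-tg. It made up 84.4 to 88.9% in Myh6-ctl and 48.1, 43.6 and 40.2% in Myh6-tg, where the muscle form was thus the lesser one in each heart. Hk2 made up 48.3 ± 6.31% (SD, n = 3) of hexokinase FPKM in EIIa-ctl and 26.5 ± 7.03% in EIIa-tg, and 41.8 ± 2.07% in Myh6-ctl hearts and 15.2 ± 5.01% in Myh6-tg.

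The share of Pfkm varied little within groups. It was 84.1, 84.6 and 84.2% of the 3 phosphofructokinases in Myh6-ctl and 64.3, 63.6 and 64.0% in Myh6-tg, with replicate 1 close to the other hearts, whereas in the EIIa model 85.6 to 88.3% and 84.2 to 87.8% overlapped. Pgam2 went from 93.2 ± 0.523% to 86.9 ± 3.18% in the EIIa model and from 89.7 ± 2.46% to 61.6 ± 18.5% in the Myh6 model, the hearts of Myh6-tg being at 82.5, 54.9 and 47.3%. Ldhb went from 69.2 ± 2.72% to 62.1 ± 2.11% and from 63.2 ± 5.58% to 38.5 ± 4.28%, without overlap in either model. Pfkfb2 made up 60.1 to 64.4% of the 4 PFK2/FBPase2 genes in Myh6-ctl and 26.8, 15.1 and 12.9% in Myh6-tg, and its shares of 27.9 to 49.1% and 31.8 to 38.1% overlapped in the EIIa model. Aldoa made up essentially all aldolase FPKM in every heart, and no ratio was tested since Aldoc was listed at 0 in 1 heart.

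**Figure D3:**
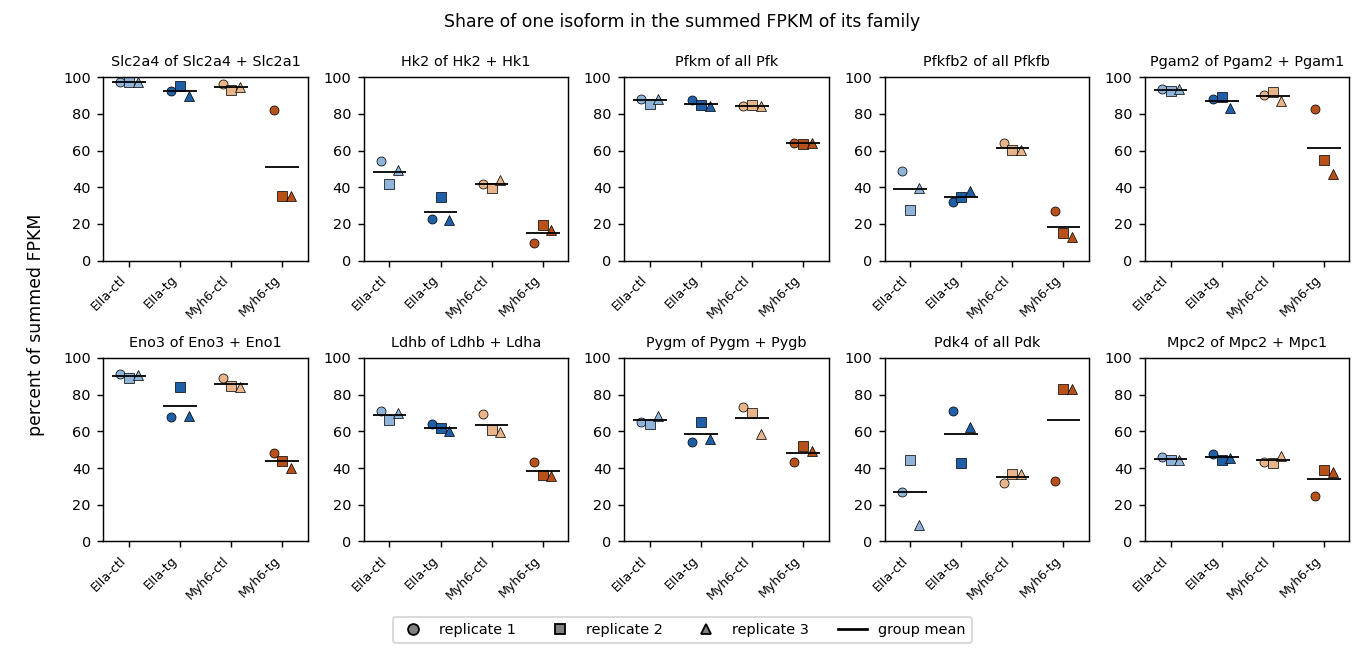
Share of 1 isoform in the summed FPKM of its family in each heart (vertical axes, percent from 0 to 100; 1 point per heart, shape for the replicate number, line for the group mean) in 10 families. The Myh6-tg hearts lie below their controls in the panels of Slc2a4, Hk2, Pfkm, Pfkfb2, Pgam2, Eno3, Ldhb, Pygm and Mpc2, and Pdk4 of all Pdk spreads from 33.1 to 83.3% in that group.

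At the entry of pyruvate into the mitochondrion, Mpc1 and Mpc2, the subunits of the pyruvate carrier, were at 284 to 319.5 and 246 to 274 normalized CPM in EIIa-ctl and at 204, 251 and 191 and at 198, 220.1 and 173 in EIIa-tg. Both fell, by 0.46 (SE 0.13, adjusted p = 0.0438) and 0.41 (SE 0.12, adjusted p = 0.0473) on the log2 scale. In the Myh6 model Mpc2 was at 221, 302 and 168 in controls and at 90.9, 100.4 and 83.6 in Myh6-tg, and fell by 1.33 (SE 0.25, adjusted p = 0.0126). Mpc1 was at 272, 373 and 178 and then at 255, 144 and 126. These groups overlapped, with a difference of -0.65 (SE 0.36, adjusted p = 0.239), and without Myh6-tg replicate 1 it was -1.03 (SE 0.31, adjusted p = 0.0464). Mpc2's share of the FPKM of both subunits was 43.2, 42.9 and 46.7% in Myh6-ctl and 24.9, 38.7 and 38.1% in Myh6-tg, lowest in replicate 1, and it overlapped in the EIIa model.

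The 4 core subunits of the PDH complex went down together in the EIIa model. Pdha1 and Pdhb, the subunits of the decarboxylase E1, were at 1219, 990.2 and 1155 and at 698, 617 and 725 normalized CPM in EIIa-ctl and at 715, 868 and 578 and at 412, 566 and 403 in EIIa-tg. They fell by 0.64 (SE 0.17, adjusted p = 0.0403) and 0.57 (SE 0.16, adjusted p = 0.0455). Dlat, the E2 core, went from 416, 350.1 and 408 to 218, 273 and 189.7 and fell by 0.79 (SE 0.15, adjusted p = 0.0202), the lowest adjusted p of the 40 genes in that model. Dld, the E3 that other dehydrogenases share, went from 447, 388 and 456 to 262, 348 and 222 and fell by 0.64 (SE 0.17, adjusted p = 0.0408). For each of the 4, EIIa-tg replicate 2 was the heart nearest to the controls.

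In the Myh6 model all 3 transgenic hearts were below all controls for each of these 4 genes, and Pdhb and Dld were called. Pdhb went from 593, 547 and 393 to 279.9, 214 and 180.4 normalized CPM (log2 difference -1.18, SE 0.26, adjusted p = 0.0195) and Dld from 446, 363 and 288 to 228, 122 and 108 (-1.26, SE 0.33, adjusted p = 0.0347). Pdha1 went from 980.4, 878 and 796 to 672, 372 and 299.5, with a difference of -0.98 (SE 0.32, adjusted p = 0.0720) that was -1.07 (SE 0.24, adjusted p = 0.0248) with the replicate block. Dlat went from 367, 281 and 232 to 220.1, 136 and 113, with -0.91 (SE 0.30, adjusted p = 0.0726) and, with the block, -0.94 (SE 0.18, adjusted p = 0.0147). Pdp1, the phosphatase that switches the complex on, was not called in either model, at -0.33 (SE 0.12, adjusted p = 0.0914) and -0.26 (SE 0.25, adjusted p = 0.520).

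The PDH kinases, which switch the complex off, differed among themselves. Pdk2, with Pdk4 the main kinase of heart, was at 350.4, 371 and 275 normalized CPM in Myh6-ctl and at 199, 71.7 and 61.6 in Myh6-tg, and fell by 1.59 (SE 0.44, adjusted p = 0.0445). Pdk1 was at 133, 104 and 121 and then at 93.5, 55.1 and 50.3, with a difference of -0.85 (SE 0.26, adjusted p = 0.0597) that the replicate block called at -0.90 (SE 0.20, adjusted p = 0.0247). Pdk3, a minor form here, was at 3.64, 5.12 and 5.45 and then at 20.7, 6.96 and 6.15, and was not called (1.25, SE 0.48, adjusted p = 0.110).

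Pdk4, the kinase that fasting and fatty acids induce, varied widely within groups. It was at 294, 525 and 88.4 normalized CPM in EIIa-ctl and at 1607, 493 and 818 in EIIa-tg, with a log2 difference of 1.68 (SE 0.61, adjusted p = 0.0921) and overlapping groups. In Myh6-ctl it was at 296, 376 and 303 and in Myh6-tg at 201, 796 and 676, so that replicate 1 was below every control and the other hearts above them. The difference was 0.78 (SE 0.46, adjusted p = 0.272) with all hearts. It was 1.17 (SE 0.20, adjusted p = 0.00612) without Myh6-tg replicate 1, a heart picked out from these same data, where 26.7% of all genes were called. Pdk4 made up 31.7 to 36.9% of the FPKM of the 4 kinases in Myh6-ctl and 33.1, 83.3 and 82.9% in Myh6-tg, and 26.9, 44.2 and 9.16% in EIIa-ctl and 71.0, 42.7 and 62.5% in EIIa-tg. Both pairs of groups overlapped.

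**Figure D4:**
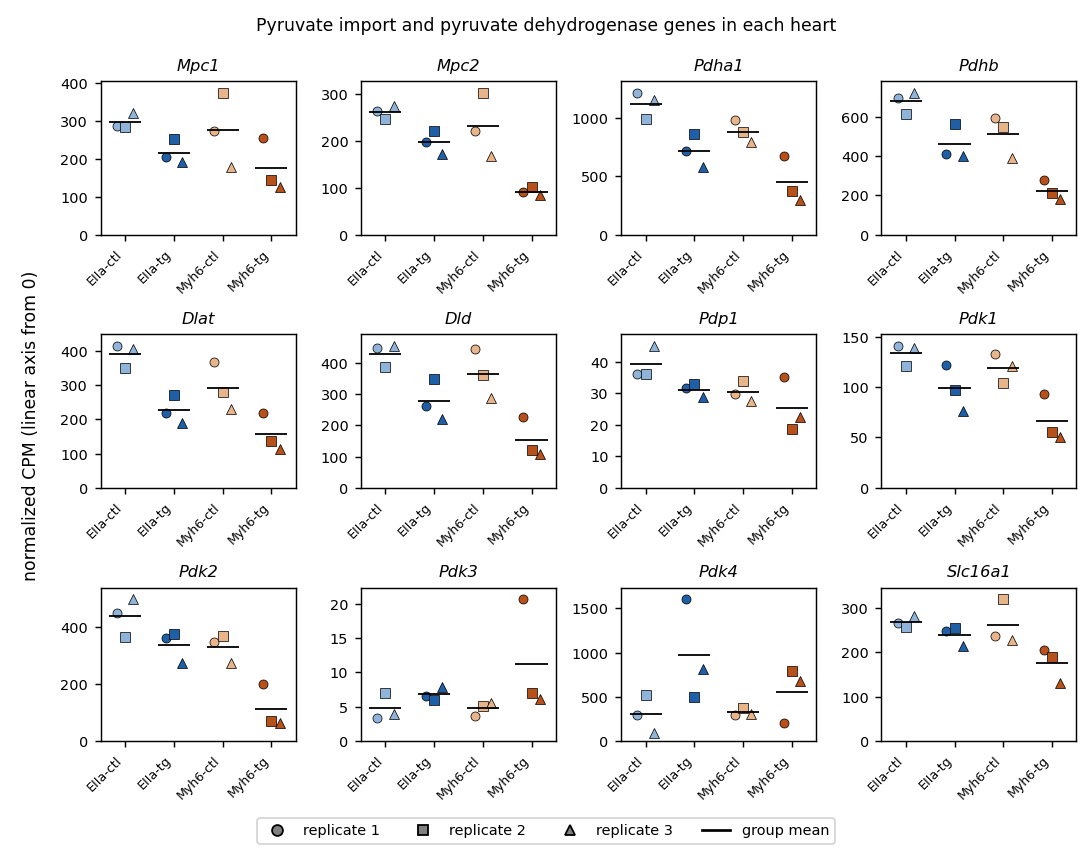
Normalized CPM in each heart (vertical axes, linear and starting at 0; 1 point per heart, shape for the replicate number, line for the group mean) for the pyruvate carrier, the PDH complex, its phosphatase Pdp1, its 4 kinases and the lactate carrier Slc16a1. EIIa-tg hearts lie below EIIa-ctl hearts for Pdha1, Pdhb, Dlat and Dld, and Pdk4 spreads from 88.4 to 525 among the EIIa-ctl hearts.

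Among glycogen genes, the enzymes of synthesis and breakdown did not move as one. Gys1, the muscle glycogen synthase, was at 106, 83.8 and 99.6 normalized CPM in EIIa-ctl and at 55.3, 76.9 and 45.9 in EIIa-tg, and fell by 0.70 (SE 0.19, adjusted p = 0.0402). In the Myh6 model it was at 115, 74.6 and 80.6 and then at 128, 41.1 and 36.7, overlapping through replicate 1, with a difference of -0.40 (SE 0.47, adjusted p = 0.600) and of -1.21 (SE 0.23, adjusted p = 0.00892) without that heart. Gbe1, which adds the branches, was at 62.6, 76.4 and 62.3 in Myh6-ctl and at 119, 127 and 115 in Myh6-tg, and rose by 0.84 (SE 0.17, adjusted p = 0.0157). Between the EIIa groups it was at 55.5 to 57.3 and then at 62.2, 79.3 and 66.2, without overlap, and was not called (0.29, SE 0.11, adjusted p = 0.107).

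Pygm, the muscle glycogen phosphorylase, was at 933, 953 and 672 normalized CPM in Myh6-ctl and at 349, 151 and 115 in Myh6-tg, and fell by 2.06 (SE 0.43, adjusted p = 0.0175). It was at 816 to 1057 in EIIa-ctl and at 598, 852 and 513 in EIIa-tg, with an uncalled difference of -0.55 (SE 0.20, adjusted p = 0.0934). Pygb, the brain form, was at 469, 558 and 642 in Myh6-ctl and at 626, 190.0 and 161 in Myh6-tg, and was called in neither model, although without Myh6-tg replicate 1 its difference was -1.67 (SE 0.22, adjusted p = 0.00253). Pygm's share of phosphorylase FPKM was 73.0, 69.9 and 58.8% in Myh6-ctl and 43.1, 52.0 and 49.2% in Myh6-tg, and it overlapped between the EIIa groups.

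**Figure D5:**
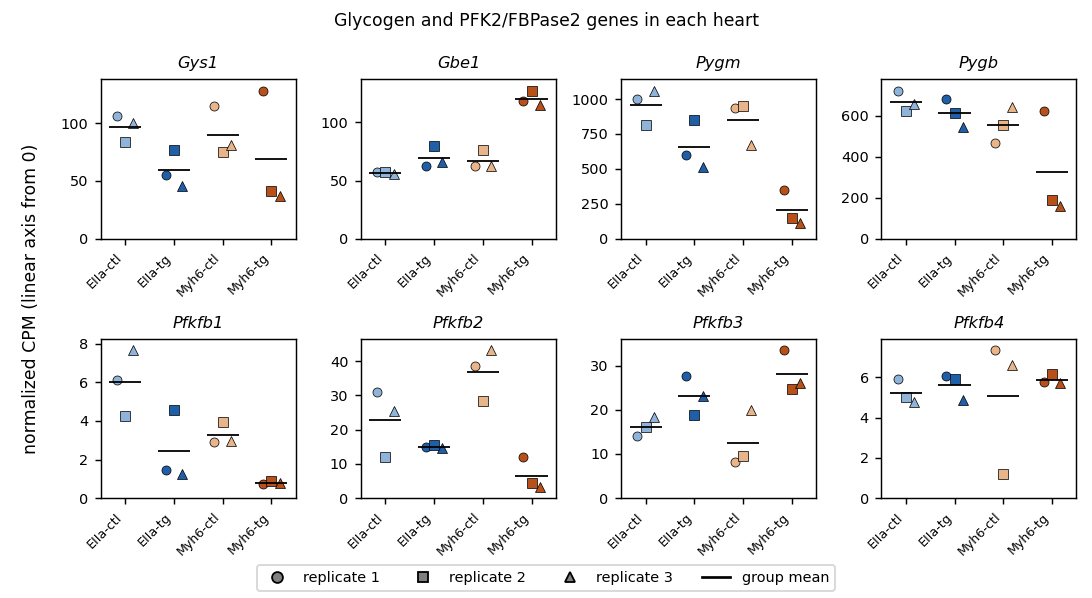
Normalized CPM in each heart (vertical axes, linear and starting at 0; 1 point per heart, shape for the replicate number, line for the group mean) for 4 glycogen genes and the 4 PFK2/FBPase2 genes. Gbe1 stands at 115 to 127 in Myh6-tg and at 62.3 to 76.4 in Myh6-ctl, while Myh6-tg replicate 1 stands apart for Gys1 and Pygb.

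The control groups were compared to see how the genes differ without an active transgene. Age, Cre line and oil injection cannot be told apart in this contrast. Nor can the difference in Esr1, at 0.408 to 1.23 normalized CPM in EIIa-ctl and 1031 to 2329 in Myh6-ctl, whose part was not tested. By edgeR's test 0 of the 40 were called, as by DESeq2, and 0.0334% of all genes were (0.0200% higher and 0.0133% lower). By edgeR, 5 of the 40 had an unadjusted p under 0.05, namely Slc2a4, Pfkfb1, Pgam1, Pdp1 and Pdk2. The share of all genes under that limit was not taken. Myh6-ctl hearts lay wholly below EIIa-ctl hearts for 5 genes and wholly above for 2, where 8.73% and 8.69% of all genes did so. Pgam1 was the clearest, at 78.4 to 84.998 normalized CPM in Myh6-ctl against 58.0 to 63.2 in EIIa-ctl (log2 difference 0.44, SE 0.12, adjusted p = 0.208). Among the shares, that of Pfkfb2 was 38.9 ± 10.6% in EIIa-ctl and 61.7 ± 2.37% in Myh6-ctl, without overlap, and those of Slc2a4, Pfkm, Pgam2 and Eno3 were lower in Myh6-ctl without overlap (exact permutation p = 0.1 each).

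The difference between the models was tested as an interaction over all 12 hearts. The Esr1 difference between the Myh6 groups runs with this contrast too, and its part was not tested. Of the 40 genes only Slc2a1 was called, with a change that was 1.28 larger on the log2 scale in the Myh6 model (SE 0.29, adjusted p = 0.0312), where 1.65% of all genes were called with a larger value and 2.27% with a smaller one. The size of this difference stayed between 1.14 and 1.52 with each heart left out in turn, but the call was lost, at an adjusted p of up to 0.0931, when replicate 1 or 3 of EIIa-ctl, 1 or 2 of EIIa-tg, 1 or 3 of Myh6-ctl, or 2 or 3 of Myh6-tg was left out. Without Myh6-tg replicate 1 there were 11 calls, 9 of them lower in the Myh6 model, where 10.6% of all genes were called. Without Myh6-ctl replicate 3 there were 2, neither of them Slc2a1, where 3.75% of all genes were called. The next lowest adjusted p values were those of Pfkp (1.33, SE 0.38, adjusted p = 0.0767) and Mpc2 (-0.92, SE 0.27, adjusted p = 0.0846). For Hk2, which fell in both models, the difference was -0.12 (SE 0.34, adjusted p = 0.895).

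Genes of neighbouring paths were taken by the same test, and their counts stand against the share of all genes, of which 8.65% rose and 8.30% fell in the EIIa model and 8.96% rose and 9.38% fell in the Myh6 model. Of the 9 genes of the pentose phosphate pathway, which draws glucose 6-phosphate off to make NADPH and ribose, 3 rose in the EIIa model (33.3%) and 4 in the Myh6 model (44.4%), and none fell, with a median log2 fold change of 0.19 and 0.63. Taldo1 (transaldolase) was at 91.6, 100.4 and 96.5 normalized CPM in EIIa-ctl and 152, 132 and 214 in EIIa-tg, and at 89.7, 156 and 90.4 in the Myh6-ctl hearts and 394, 513 and 503 in Myh6-tg. It rose by 0.78 (SE 0.16, adjusted p = 0.0233) and by 2.07 (SE 0.28, adjusted p = 0.00516). Pgd and G6pdx, the enzymes of its oxidative branch that make NADPH, rose by 0.75 and 0.76 in the EIIa model (adjusted p = 0.03003 and 0.0270) and by 1.70 and 1.07 in the Myh6 model (adjusted p = 0.00858 and 0.0212).

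Of 10 genes of the shuttles that pass the electrons of glycolytic NADH into the mitochondrion, 0 rose and 3 fell (30.0%) in each model, and 7 were not called. Slc25a11, the oxoglutarate carrier, fell by 0.77 (adjusted p = 0.0270) and fell by 1.58 (adjusted p = 0.0166), and Slc25a13, an aspartate-glutamate carrier, by 1.30 (adjusted p = 0.0269) and 1.93 (adjusted p = 0.0209). Gpd1l fell by 0.53 in the EIIa model (adjusted p = 0.0318) and cytosolic malate dehydrogenase, Mdh1, by 1.28 in the Myh6 model (adjusted p = 0.0480).

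Of 18 other genes of lactate and pyruvate, 2 rose (11.1%) and 6 fell (33.3%) in the EIIa model, and 2 rose and 4 fell (22.2%) in the Myh6 model. The rises were thus near the share of all genes. Slc16a3, the lactate exporter MCT4, was at 2.94, 4.58 and 5.83 normalized CPM in Myh6-ctl and at 16.8, 20.9 and 15.7 in Myh6-tg, and rose by 2.00 (SE 0.29, adjusted p = 0.00596). Slc16a7, the carrier MCT2, fell there by 1.77 (adjusted p = 0.0115) and Ldhd, the D-lactate dehydrogenase, by 1.98 (adjusted p = 0.00368). In the EIIa model Pdp2 and Pdpr, the second PDH phosphatase and the regulatory subunit of these phosphatases, fell by 1.68 (adjusted p = 0.0302) and 1.15 (adjusted p = 0.0231), and Emb, a partner protein of lactate carriers, rose by 1.71 (adjusted p = 0.0166).

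Of 22 other genes of glucose entry and glycolysis tested in the EIIa model 2 rose and 2 fell (9.09% each), and of 23 in the Myh6 model 1 rose (4.35%) and 3 fell, so this list was called about as often as genes at large. Fbp2, the muscle fructose bisphosphatase that opposes phosphofructokinase, was at 19.7, 22.2 and 15.2 normalized CPM in Myh6-ctl and at 1.22, 1.41 and 1.14 in Myh6-tg. It fell by 3.92 (SE 0.25, adjusted p = 0.000845), while in the EIIa groups it was at 22.4 to 30.4 and 18.9 to 34.0. Slc2a3, the transporter GLUT3, rose by 0.96 to at most 5.60 normalized CPM (adjusted p = 0.0492; with the replicate block 0.0604). In the EIIa model Bpgm fell by 0.64 (adjusted p = 0.0233), and the leukocyte hexokinase Hk3 rose by 1.19 (adjusted p = 0.0396), where all 7 leukocyte markers rose. Markers of red blood cells, in which Bpgm is abundant, summed to 1543 to 2607 normalized CPM in EIIa-ctl and 198 to 1270 in EIIa-tg, and their part in the result was not tested.

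Of 21 other glycogen genes tested in the EIIa model 0 rose and 2 fell (9.52%, near the share of all genes), among them Epm2a (laforin), which fell by 0.94 (adjusted p = 0.0185). Of 22 in the Myh6 model 1 rose (4.55%) and 4 fell (18.2%). The catalytic subunits of phosphorylase kinase went opposite ways there: Phkg1, the muscle form, fell by 2.34 (SE 0.28, adjusted p = 0.00370) and Phkg2, the liver form, rose by 0.79 (SE 0.18, adjusted p = 0.0219). Ppp1r3b, which targets a phosphatase to glycogen, fell by 1.73 (adjusted p = 0.0154).

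Of 34 regulators of glucose use, 3 rose (8.82%) and 4 fell (11.8%) in the EIIa model, both near the share of all genes, and 3 rose and 6 fell (17.6%) in the Myh6 model. Txnip, which promotes the removal of glucose transporters from the membrane, was at 580.5, 310.0 and 324 normalized CPM in EIIa-ctl and at 1820.2, 989 and 1341 in EIIa-tg, and rose by 1.77 (SE 0.30, adjusted p = 0.0166). Prkag3, a subunit of AMP-activated kinase, and the transcription factor Myc rose by 2.16 (adjusted p = 0.0145) and 1.91 (adjusted p = 0.0166). In the Myh6 model Mlxipl, which encodes the glucose-sensing factor ChREBP, fell by 1.86 (SE 0.22, adjusted p = 0.00370), Tbc1d4, which holds back GLUT4 vesicles until insulin acts, by 2.11 (SE 0.27, adjusted p = 0.00456), and Ppargc1a, a coactivator of mitochondrial genes, by 2.39 (SE 0.34, adjusted p = 0.00588). With each heart left out in turn, 10 of the 17 named calls of these lists held in the Myh6 model and 0 of the 15 in the EIIa model, where each was lost when replicate 1 or 3 of EIIa-ctl or replicate 1 of EIIa-tg was left out, and all but Prkag3 without EIIa-tg replicate 3.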

How the data were processed

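Gene counts as deposited are whole reads per gene and heart; the authors mapped paired-end reads of NEBNext Ultra libraries with HISAT2 (2.0.4 per the processing notes) to GRCm38, while the notes also name GRCm39, StringTie 2.2.1 and DESeq2. The authors' FPKM values divide such fragments by transcript length and library total. The counting program, annotation release and strand setting are not given in the sources used here. Hearts were grouped by their titles, since the genotype labels of EIIa-tg replicates 2 and 3 differ from that of replicate 1.

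Counts were tested with edgeR 4.0.16 (R 4.3.3): filterByExpr by group, TMM scaling and the quasi-likelihood test, over the 6 hearts of a comparison or all 12 for the difference between models, with Benjamini-Hochberg adjustment over all genes tested. Normalized CPM were scaled by TMM over the 12 hearts, in which 3 counts correspond to 0.0568 to 0.0815. The distance between hearts was Euclidean, on log2(normalized CPM + 1). The test was tried on simulated counts. Isoform shares used FPKM and exact permutation tests (Python 3.11.15). Alternatives were other scaling and filters, DESeq2 1.42.0, limma 3.58.1 on log2(FPKM + 1 or 0.1), removal of mitochondrial genes, a replicate block, a fit of all 12 hearts and each heart left out.

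Deviations of Myh6-tg and Myh6-ctl hearts with the same replicate number correlated at 0.263, 0.220 and 0.248, so these numbers were taken to pair the hearts, from the data and not the labels. EIIa-ctl replicate 2 and EIIa-tg replicate 3, with different numbers, correlated at 0.258, so values of this size do not establish a pairing. Calls gained with the replicate block therefore rest on a pairing drawn from the same data and are no independent support. Values of single genes without Myh6-tg replicate 1 or EIIa-tg replicate 2 leave out hearts picked out from these data, and are no independent support either. The genes and lists were chosen with earlier results of these data known. Named were all 40 genes and, from each further list and comparison, up to 3 called genes of lowest adjusted p with a mean of at least 1 CPM, apart from a few that are not reported here. Positions are from GENCODE M21 (GRCm38) and promoter sequences from RefSeq (GRCm38.p6).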

Additional observations from a re-analysis of the deposited data

Results flagged for a closer look

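The change in the Myh6 model differed from that in the EIIa model for 9 of the genes described, by the interaction term of edgeR's quasi-likelihood test with adjustment over all genes. Of all genes 3.92% were called. The neighbouring genes were named because they were called, so their number is not a share. Among the 40 glucose and pyruvate genes this held for Slc2a1 alone, whose change was 1.28 larger on the log2 scale (adjusted p = 0.0312). That call was lost when certain single hearts were left out, at an adjusted p of up to 0.0931. Among the neighbouring genes the change in the Myh6 model was lower by the following log2 differences: -3.81 for Fbp2 (adjusted p = 0.000343), -2.28 for Ppargc1a (0.0112), -2.03 for Mlxipl (0.00238), -1.80 for Phkg1 (0.0112), -1.61 for Tbc1d4 (0.0216), -1.59 for Slc16a7 (0.0253) and -1.51 for Ldhd (0.0215). For Phkg2 it was higher, by 0.95 (adjusted p = 0.0201). Of the 8 neighbouring genes, 4 (Fbp2, Mlxipl, Phkg1 and Ppargc1a) kept the call with each heart left out in turn. With the replicate block 7 of the 8 were called, and Slc16a7 was not (-1.63, adjusted p = 0.0625).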

How the results depend on the processing

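No called value of the 40 genes changed direction under an alternative. In the EIIa model the 13 calls became 0 by limma on log2(FPKM + 1) without a filter, where 0.00513% of all genes were called. They became 1 with all 12 hearts in one fit (1.43% of all genes) and 0 to 20 with 1 heart left out (0 to 26.6%). At the stricter limits 0 of the 40 and 0% of all genes passed, against 2 of the 40 by DESeq2 (4.25% of all genes). In that limma fit without a filter 22 of the 40 had an unadjusted p under 0.05, against 23 in the test as reported. The share of all genes under that limit was not taken. With the replicate block there were 0 calls and 22 at an unadjusted p under 0.05, and the block left 1 call over all genes in place of 2527. Same-numbered EIIa hearts correlated at 0.135, -0.138 and -0.114. EIIa-ctl replicate 2 and EIIa-tg replicate 3, with different numbers, correlated at 0.258. These correlations do not settle whether the numbers pair the hearts in either model. In the Myh6 model the 16 calls (18.3% of all genes called) became 26 with all 12 hearts (31.7%), 2 at the stricter limits (3.97%) and 3 to 26 with 1 heart left out (5.01 to 26.7%). Those limits were passed by 15 by DESeq2 (10.7% of all genes), 14 with all 12 hearts (11.7%) and 10 with the replicate block (6.33%). They were passed by 9 by limma on FPKM with either pseudocount (9.71% and 10.7%), 5 without the count filter (4.35%) and 3 at a CPM of at least 1 (5.21%). Without Myh6-tg replicate 1 17 passed (10.6%), against 0 or 1 with another heart left out (0.163 to 0.484%). In the EIIa model 5 passed without EIIa-tg replicate 2 (6.02%). The replicate block gave 22 calls in the Myh6 model, all 16 among them, where 20.9% of all genes were called. For the difference between models the 1 call (3.92% of all genes called) became 7 by DESeq2 (6.67%) and 6 by limma on FPKM with either pseudocount (5.76% and 4.87%). It became 4 by limma without the filter (2.94%), 2 with the replicate block (3.17%), 0 at the stricter limits (0.622%) and 0 to 11 with 1 heart left out (1.78 to 10.6%). On unscaled counts the log2 balance of Pfkm to the other phosphofructokinases differed by -1.64 in the Myh6 model, against -1.60 from FPKM, and that of Pfkfb2 by -3.49 against -2.92. The cause of these shifts was not tested. With 3 hearts a group, an exact permutation test cannot give a p under 0.1.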
